A study of Mus musculus with 9 samples.

Results

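The core loop of the circadian clock was followed through 10 genes: the activators Arntl (also named Bmal1), Clock and Npas2, and the repressors Per1, Per2, Per3, Cry1, Cry2, Nr1d1 and Nr1d2. These members were chosen by name from a table of 27179 genes, with earlier results of these data known. All 10 were among the 16860 genes tested. The table holds raw RNA-seq counts from livers of Apoe-/- mice (n = 5 libraries) and Mif-2-/- Apoe-/- mice (n = 4 libraries). Both groups lack apolipoprotein E, which makes mice hyperlipidemic, so the comparison is for the loss of Mif-2 on that background. Mif-2, named Ddt in the gene table, encodes a cytokine of the macrophage migration inhibitory factor family and was deleted in the whole animal. The labels give all mice as female, and the study describes littermates on a C57BL/6 background, fed a cholesterol-rich high-fat diet for 12 weeks from an age of 8 weeks. RNA came from frozen liver sections. The mice lived in a cycle of 12 h light and dark. The time of day at which the livers were taken is not given in the sources used here, and its part in the values below was not tested.

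In the clock, ARNTL pairs with CLOCK or with its relative NPAS2 on E-box elements and switches on the Per, Cry and Nr1d genes. PER and CRY proteins return to the nucleus and inhibit that pair. NR1D1 and NR1D2, also called REV-ERB alpha and beta, repress Arntl through ROR elements, while ROR proteins activate it there. In liver, transcripts of most of these genes rise and fall over the day, and their outputs include enzymes of lipid, bile acid and drug metabolism. The genes do not all peak at the same time, and each library gives a reading of both arms.

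These elements were searched for on both strands of the RefSeq promoter windows (GRCm38.p6), each with 250 bases before and 50 bases after a transcription start site. Of the 10 members, 9 had a window, and these members had 13 windows among 32851 in all. Per2 had no window, so it was not searched. The E-box CACGTG stood in 7.15% of all windows and in those of Per1 and Cry1. The related E' box CACGTT stood in 4.68% of all windows and in those of Cry1, Cry2 and Nr1d1. The D-box, TTATGTAA or TTATGCAA, is bound by DBP, TEF and HLF and stood in 1.66% of all windows and in those of Per1 and Per3. The ROR element, TAGGTCA or TGGGTCA, stood in 6.45% of all windows and in that of Arntl, within an exon from base 31 after the start. The stretches shown here carry matches in capitals, which do not overlap each other. They were chosen to show the elements in Per1, Per3 and Nr1d1, which separated the genotypes and had a window, in their relatives Cry1 and Cry2, and in Arntl. An E' box read from the opposite strand is printed as AACGTG. These matches are a description of sequence and not of binding.
Per1, chr11:69098763-69098808, plus strand, inside the gene before an internal start: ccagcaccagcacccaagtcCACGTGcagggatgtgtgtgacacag
Per3, chr4:151044796-151044890, minus strand: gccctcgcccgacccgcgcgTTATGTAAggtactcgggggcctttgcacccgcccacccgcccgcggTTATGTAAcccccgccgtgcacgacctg
Nr1d1, chr11:98775380-98775425, minus strand: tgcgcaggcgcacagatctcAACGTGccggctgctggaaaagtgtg
Cry1, chr10:85185089-85185153, minus strand: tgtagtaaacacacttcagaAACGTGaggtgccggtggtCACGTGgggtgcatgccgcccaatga
Cry2, chr2:92434210-92434255, minus strand: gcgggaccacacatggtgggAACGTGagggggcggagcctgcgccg
Arntl, chr7:113207533-113207555, plus strand: gcagaaagTAGGTCAgggacgga

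**Figure D1:**
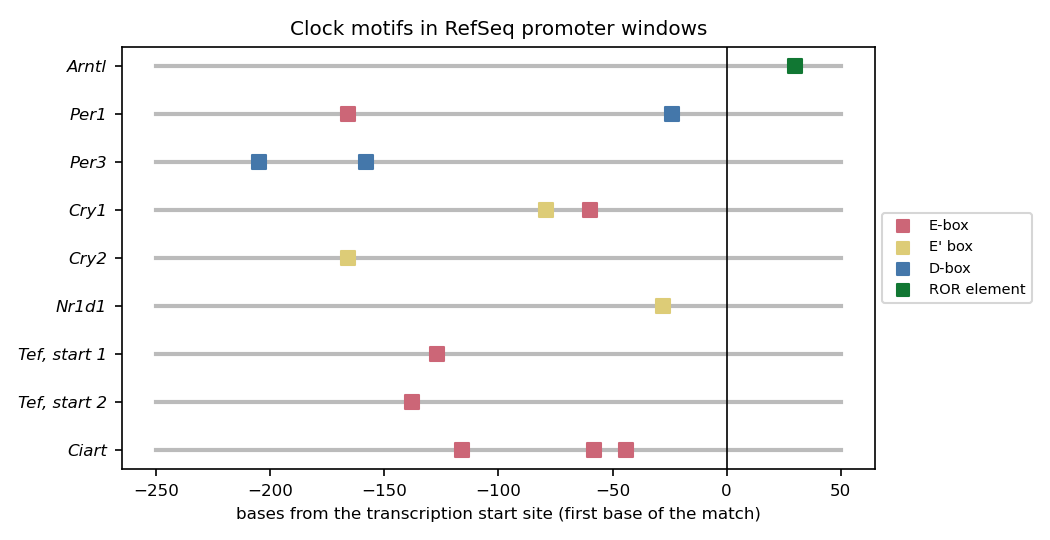
Positions of the motif matches in the RefSeq promoter windows of 6 members and of Tef and Ciart. The x axis gives bases from the transcription start site (0), grey lines are windows, and squares mark the first base of a match. Per3 holds 2 D-boxes, Cry1 holds an E-box and an E' box, and the ROR element of Arntl lies after its start.

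Per1, Per2, Per3 and Nr1d1 were higher in all 4 Mif-2-/- Apoe-/- libraries than in any of the 5 Apoe-/- libraries. Their fitted differences lay between 2.54-fold for Nr1d1 and 8.44-fold for Per2. The activators Arntl, Clock and Npas2, the cryptochromes Cry1 and Cry2, and Nr1d2 overlapped between genotypes. By edgeR, a quasi-likelihood test on counts with Benjamini-Hochberg adjustment, 0 members passed an adjusted p of 0.05, where 0.13% of the 16860 genes tested did. At an unadjusted p of 0.05 the same test gave 4 members higher in Mif-2-/- Apoe-/- livers, against 8.99% of genes in that direction. DESeq2 gave 4 of the 9 members with an adjusted p as higher at an adjusted p of 0.05, against 2.75% of genes. Groups that did not overlap, with Mif-2-/- Apoe-/- higher, were found for 4 members and for 2.03% of genes. In each of these counts the 4 members were Per1, Per2, Per3 and Nr1d1, and 0 members were counted in the other direction. The median log2 fold change was 0.94 over the members, 1.38 over the repressors, 0.50 over the activators and 0.17 over all genes tested. The repressor median was the value of Nr1d2 and the activator median that of Clock, both at 25 counts or fewer in every library. Arntl was at -0.50. Positive values mean higher in Mif-2-/- Apoe-/- livers throughout.

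**Figure D2:**
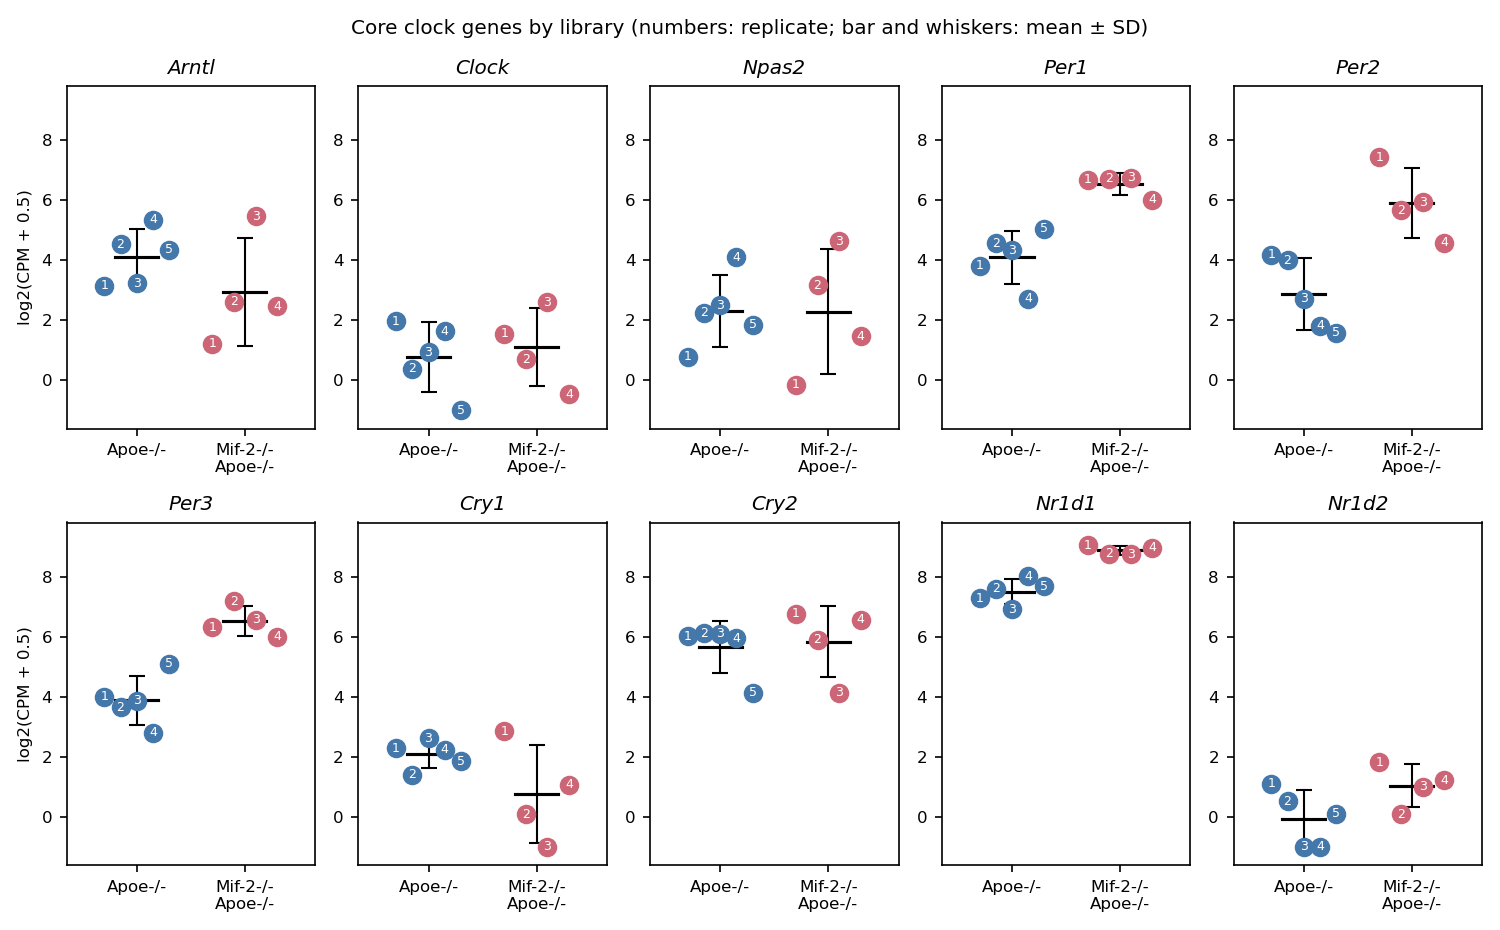
Level of each member in each library, as log2(CPM + 0.5) on the y axis, where CPM is the count relative to the scaled library total. Numbered points are replicates of Apoe-/- (blue) and Mif-2-/- Apoe-/- (red), and the bar with whiskers is the mean ± SD. Per1, Per2, Per3 and Nr1d1 separate the genotypes, and Arntl and Npas2 are highest in Mif-2-/- Apoe-/- replicate 3.

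The period genes encode the repressor proteins that accumulate, enter the nucleus and stop their own transcription. Per1 (chr11:69095217-69109960, plus strand, GRCm38) was at 13.6, 23.2, 19.7, 6.05 and 32.5 CPM in Apoe-/- replicates 1 to 5. It was at 102, 104, 107 and 63.8 CPM in Mif-2-/- Apoe-/- replicates 1 to 4. The lowest Mif-2-/- Apoe-/- library therefore lay above the highest Apoe-/- library. The means were 19.0 ± 9.98 CPM (n = 5, SD) and 94.2 ± 20.4 CPM (n = 4, SD). Per1 had a log2 fold change of 2.31 (SE 0.45, edgeR unadjusted p = 1.49e-04, adjusted p = 0.0759). DESeq2 gave an adjusted p of 2.06e-04, and over 20 alternatives the adjusted p ran from 2.06e-04 to 0.191. A two-sided exact permutation test gave p = 0.00794, the smallest that all arrangements of 5 and 4 libraries allow. Per1 also responds to hormones and other acute signals, and the lists of such genes are given further on.

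Per2 (chr1:91415982-91459324, minus strand) was at 17.7, 15.4, 6.10, 3.02 and 2.52 CPM in Apoe-/- replicates 1 to 5. In Mif-2-/- Apoe-/- replicates 1 to 4 it was at 172, 50.0, 60.7 and 23.5 CPM. The groups did not overlap, but the spread was wide, with 7.31-fold between the lowest and the highest Mif-2-/- Apoe-/- library. The log2 fold change of 3.08 (SE 0.69) was the largest of the 10 members, with an edgeR adjusted p of 0.106 and a DESeq2 adjusted p of 0.00117. The adjusted p of Per2 ran from 9.31e-04 to 0.230 over 20 alternatives, and the exact permutation p was 0.00794.

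Per3 (chr4:151003652-151044665, minus strand), whose protein is less essential to rhythm in mice than its relatives, was at 15.5, 12.1, 14.1, 6.45 and 33.7 CPM in Apoe-/- replicates 1 to 5. It was at 78.7, 144, 94.2 and 63.1 CPM in Mif-2-/- Apoe-/- replicates 1 to 4. Again every Mif-2-/- Apoe-/- library lay above every Apoe-/- library. The log2 fold change was 2.53 (SE 0.47), with an edgeR adjusted p of 0.0565, the lowest of the members. DESeq2 gave 1.15e-04 for Per3, the range over 20 alternatives was 1.02e-04 to 0.171, and the exact permutation p was 0.0159. Per1 and Per3 were lowest in Apoe-/- replicate 4 and highest in replicate 5 among the Apoe-/- libraries, an order that Per2 did not share. Summed over the 3 period genes, the level was 15.5 to 68.7 CPM in Apoe-/- livers and 150 to 353 CPM in Mif-2-/- Apoe-/- livers.

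Nr1d1 (chr11:98767932-98775333, minus strand) encodes REV-ERB alpha, the nuclear receptor that represses Arntl and many lipid genes. It was at 155, 193, 120, 257 and 204 CPM in Apoe-/- replicates 1 to 5, and at 527, 435, 428 and 497 CPM in Mif-2-/- Apoe-/- replicates 1 to 4. The 4 Mif-2-/- Apoe-/- libraries lay within 1.23-fold of each other, the narrowest spread of any member in that group. The means were 186 ± 51.6 CPM (n = 5, SD) and 472 ± 48.2 CPM (n = 4, SD), and the log2 fold change was 1.34 (SE 0.29). Nr1d1 had an edgeR adjusted p of 0.104, a DESeq2 adjusted p of 5.93e-05, a range of 5.93e-05 to 0.248 over 20 alternatives, and an exact permutation p of 0.00794. Its exons overlap those of Thra, a thyroid hormone receptor gene on the opposite strand, over 263 bases, or 8.55% of its exon bases. Reads from that stretch cannot be told apart without strand. Thra had 47, 316, 78, 24 and 102 counts in Apoe-/- and 134, 17, 109 and 115 counts in Mif-2-/- Apoe-/- libraries, groups that overlapped.

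Nr1d2 (chr14:18204054-18239127, minus strand), the gene of REV-ERB beta, had only 12, 7, 0, 0 and 3 counts in Apoe-/- replicates 1 to 5 and 15, 1, 6 and 8 counts in Mif-2-/- Apoe-/- replicates 1 to 4. Its log2 fold change of 1.38 (SE 1.22, edgeR adjusted p = 0.628) had a 95% interval from -1.23 to 3.98. A difference of the size seen for Nr1d1 lies inside this interval, so it was not detectable at this depth. DESeq2 gave no adjusted p for Nr1d2.

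The cryptochromes are the partners of the PER proteins and the stronger direct inhibitors of the activator pair. Cry2 (chr2:92403646-92434043, minus strand) was at 63.8, 68.9, 67.6, 61.5 and 17.0 CPM in Apoe-/- and at 108, 59.1, 17.1 and 94.0 CPM in Mif-2-/- Apoe-/- libraries. Each genotype thus held 1 library near 17 CPM, and the groups overlapped. For Cry2 the fitted log2 fold change was 0.32 (SE 0.51, edgeR adjusted p = 0.815, 95% interval -0.78 to 1.41). The interval does not reach the fitted differences of the 3 period genes, but that of Nr1d1, at 1.34, lies inside it. Cry2 shares 4.67% of its exon bases with the opposite-strand transcript D930015M05Rik, which had 38 counts in Apoe-/- replicate 3 and 0 to 2 counts elsewhere.

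Cry1 (chr10:85131700-85185064, minus strand) had 32, 16, 12, 21 and 16 counts in Apoe-/- and 33, 1, 0 and 7 counts in Mif-2-/- Apoe-/- libraries. On the CPM scale Mif-2-/- Apoe-/- replicate 1, at 6.71, was the highest of all 9 libraries for Cry1, and replicates 2 to 4 of that genotype, at 0.57, 0 and 1.6, were below every Apoe-/- library. The log2 fold change was -0.77 (SE 1.18, edgeR adjusted p = 0.804, 95% interval -3.30 to 1.76). With 1 library left out it ran from -2.35 to -0.36. The first was without Mif-2-/- Apoe-/- replicate 1 (edgeR adjusted p = 0.466), the second without replicate 3 of that genotype (edgeR adjusted p = 0.930). So neither cryptochrome showed the separation of the period genes.

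Arntl (chr7:113207465-113314126, plus strand), the activator without which the loop stops, was at 8.37, 22.5, 8.92, 40.3 and 19.9 CPM in Apoe-/- replicates 1 to 5. In Mif-2-/- Apoe-/- replicates 1 to 4 it was at 1.83, 5.68, 43.8 and 5.03 CPM. Of these, replicates 1, 2 and 4 were below every Apoe-/- library, and replicate 3 was above every one. Its log2 fold change was -0.50 (SE 0.85, edgeR adjusted p = 0.826, 95% interval -2.32 to 1.31), and the exact permutation p was 0.246. With 1 library left out, the log2 fold change of Arntl ran from -2.28 to -0.13. It was -2.28 (SE 0.79, edgeR adjusted p = 0.348) without Mif-2-/- Apoe-/- replicate 3. Without Mif-2-/- Apoe-/- replicate 1 it was -0.13 (SE 0.83, edgeR adjusted p = 0.967).

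Npas2 (chr1:39193731-39363236, plus strand), the relative that can stand in for CLOCK, was at 1.23, 4.29, 5.16, 16.7 and 3.10 CPM in Apoe-/- and at 0.41, 8.52, 24.4 and 2.29 CPM in Mif-2-/- Apoe-/- libraries. It was highest in the libraries where Arntl was highest, replicate 4 of Apoe-/- and replicate 3 of Mif-2-/- Apoe-/-, and lowest where Arntl was lowest. Its log2 fold change was 0.54 (SE 1.07, edgeR adjusted p = 0.851, 95% interval -1.75 to 2.83), and -0.74 without Mif-2-/- Apoe-/- replicate 3.

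Clock (chr5:76209868-76304792, minus strand), whose protein is the usual partner of ARNTL and acetylates histones, had 25, 6, 3, 13 and 0 counts in Apoe-/- and 12, 2, 22 and 1 counts in Mif-2-/- Apoe-/- libraries. Its log2 fold change of 0.50 (SE 1.25, edgeR adjusted p = 0.889) had a 95% interval from -2.18 to 3.17 and turned to -0.37 without Mif-2-/- Apoe-/- replicate 3. The fitted differences of all 3 period genes lie inside that interval, so a difference of their size was not detectable at these counts.

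Per length, as CPM per kilobase of merged exon, Nr1d1 was the highest member in both genotypes, at 60.4 ± 16.8 (n = 5, SD) in Apoe-/- and 153 ± 15.7 (n = 4, SD) in Mif-2-/- Apoe-/- livers. In Apoe-/- livers Cry2 followed at 8.82 ± 3.46 and Per1 at 3.38 ± 1.77 CPM per kilobase. Arntl at 2.66 ± 1.73, Per3 at 1.70 ± 1.07, Per2 at 1.53 ± 1.22, Npas2 at 1.27 ± 1.28 and Cry1 at 1.17 ± 0.40 CPM per kilobase came next and were not separated from their neighbours beyond their SD. In Mif-2-/- Apoe-/- livers Per1 was at 16.7 ± 3.62, Per2 at 13.1 ± 11.2, Cry2 at 10.99 ± 6.39 and Per3 at 9.89 ± 3.66 CPM per kilobase, within each other's spread and behind Nr1d1. There the activators Arntl and Npas2, at 1.87 ± 2.65 and 1.86 ± 2.28 CPM per kilobase, had SDs larger than their means. Clock and Nr1d2 were the lowest members in both genotypes, at 0.32 CPM per kilobase or less.

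Set against each other in each library, the mean of the repressors separated the genotypes and the mean of the activators did not. Of the repressors, Per1, Per2, Per3 and Nr1d1 also separated singly, while Cry1, Cry2 and Nr1d2 overlapped. In the activator mean Clock, at 0 to 25 counts, has the same weight as Arntl. The mean log2(CPM + 0.5) over the 7 repressors was 4.10, 3.98, 3.65, 3.22 and 3.64 in Apoe-/- replicates 1 to 5 and 5.84, 4.91, 4.59 and 4.91 in Mif-2-/- Apoe-/- replicates 1 to 4. These ranges did not overlap, and the group means differed by 1.35. The same mean over the 3 activators was 1.97, 2.39, 2.22, 3.70 and 1.73 in Apoe-/- and 0.88, 2.17, 4.24 and 1.16 in Mif-2-/- Apoe-/- libraries. Both the lowest and the highest activator mean thus belonged to Mif-2-/- Apoe-/- livers. Activators minus repressors gave -2.12, -1.59, -1.43, 0.48 and -1.91 in Apoe-/- and -4.96, -2.74, -0.36 and -3.75 in Mif-2-/- Apoe-/- libraries on the log2 scale. The group means were -1.31 ± 1.04 (n = 5, SD) and -2.95 ± 1.96 (n = 4, SD), a difference of -1.64 with overlapping ranges. Since the members were chosen with results known, this score has no p. Left out in turn, Mif-2-/- Apoe-/- replicate 1 gave a difference of -0.97 and replicate 3 gave -2.51.

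**Figure D3:**
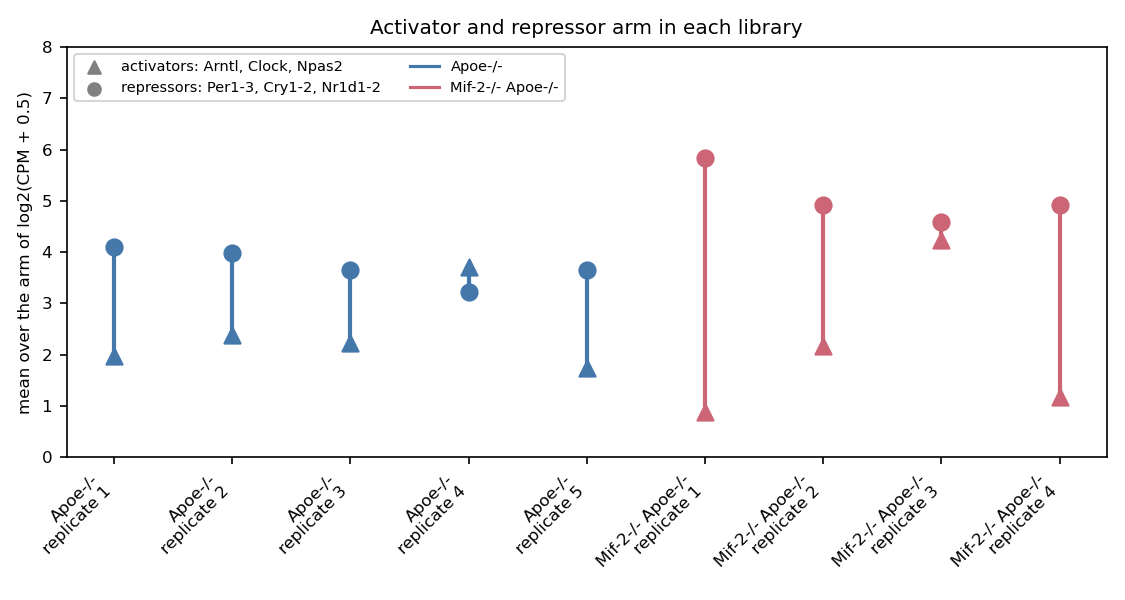
Mean log2(CPM + 0.5) of the activators (triangles) and of the repressors (circles) in each of the 9 libraries, Apoe-/- in blue and Mif-2-/- Apoe-/- in red, with a line between both arms of a library. The circles of Mif-2-/- Apoe-/- livers, 4.59 to 5.84, lie above all those of Apoe-/- livers, 3.22 to 4.10, and the triangles overlap.

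Individual libraries differed within a genotype in how both arms stood. Mif-2-/- Apoe-/- replicate 1 had the lowest Arntl and Npas2 of all 9 libraries and the highest Per2, Nr1d1 and Cry2. Mif-2-/- Apoe-/- replicate 3 had the highest Arntl, Clock and Npas2 of all libraries, no Cry1 count and a Cry2 level near the lowest, while its Per1, Per2, Per3 and Nr1d1 stayed above every Apoe-/- library. Apoe-/- replicate 4 had the highest Arntl and Npas2 of its group and the lowest Per1 and Per3, but also the highest Nr1d1 of its group. It was the only library of the 9 in which the activator mean exceeded the repressor mean. The ratio of Nr1d1 to Arntl, repressor over target, was 6.37 to 18.5 in Apoe-/- livers and 288, 76.6, 9.75 and 98.7 in Mif-2-/- Apoe-/- replicates 1 to 4. Only replicate 3 thus fell within the Apoe-/- range. That library and Apoe-/- replicate 4 also stood at the ends of the range of genes with a count, 18631 and 14220, and the part of this in their values was not tested.

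Outside the core loop, 32 further clock genes were read from the same fit, and 31 were tested. By edgeR 3 rose and 0 fell at an adjusted p of 0.05, where 0.13% of all genes passed in either direction. At an unadjusted p of 0.05, 5 were higher, against 8.99% of all genes, and 0 were lower. The median log2 fold change over the list was 0.39. The 3 were the PAR bZIP factors Dbp and Tef, which bind D-boxes, and Ciart, a repressor of the activator pair. Dbp was at 6.45, 8.98, 12.7, 0.81 and 12.4 CPM in Apoe-/- and at 425, 179, 432 and 359 CPM in Mif-2-/- Apoe-/- libraries, a log2 fold change of 5.42 (SE 0.59, edgeR adjusted p = 8.88e-04). Its exons share 539 bases with the opposite-strand gene Sphk2, which had 156 to 1053 counts in Apoe-/- and 96 to 764 counts in Mif-2-/- Apoe-/- libraries. Tef had a log2 fold change of 2.92 (SE 0.43, edgeR adjusted p = 0.0123), and Ciart of 6.58 (SE 0.78, edgeR adjusted p = 0.00205). Ciart had only 4, 1, 6, 1 and 3 counts in Apoe-/- libraries, against 260, 198, 196 and 249 in Mif-2-/- Apoe-/- libraries. The size of its fold change therefore rests on very low Apoe-/- counts. Tef was not called without Apoe-/- replicate 3 or without Apoe-/- replicate 4, where its adjusted p reached 0.0701 at most, while Dbp and Ciart passed whichever of the 9 libraries was left out. These 3 factors separated the genotypes in the direction of the period genes and Nr1d1, and Dbp was lowest in Apoe-/- replicate 4, where Per1 and Per3 were lowest.

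Nfil3, a repressor at D-boxes given for its place in the loop and not for the size of its difference, was at 65.7 ± 28.0 CPM in Apoe-/- livers (n = 5, SD). In Mif-2-/- Apoe-/- livers it was at 41.7 ± 36.0 CPM (n = 4, SD), with overlapping groups and a log2 fold change of -0.65 (SE 0.54, edgeR adjusted p = 0.596). Its lowest value, 10.8 CPM, was in Mif-2-/- Apoe-/- replicate 3, the library with the highest activators.

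**Figure D4:**
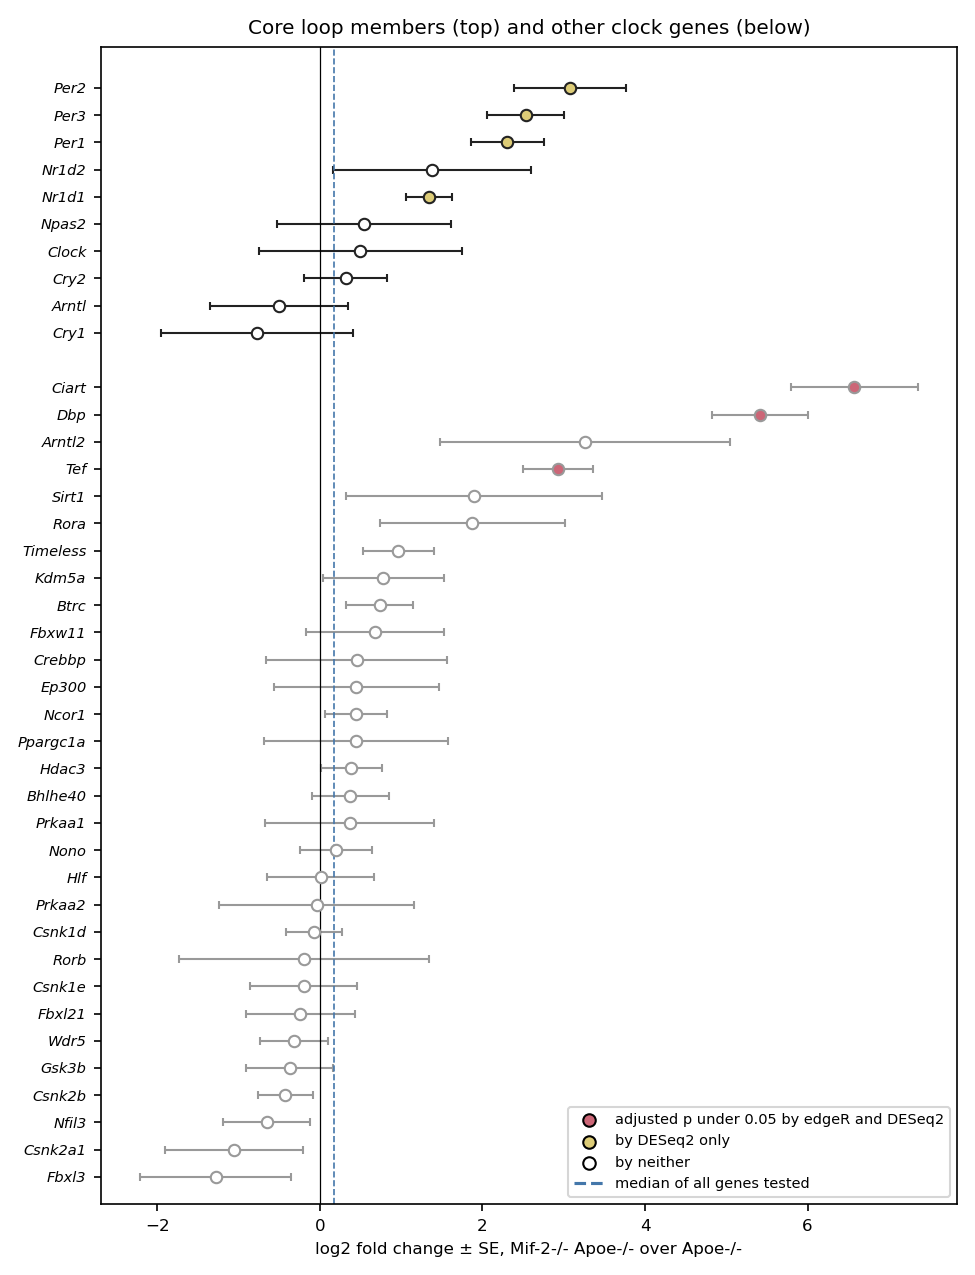
Log2 fold change ± SE on the x axis, Mif-2-/- Apoe-/- over Apoe-/-, for the 10 members (upper rows) and other clock genes (lower rows). Red points passed an adjusted p of 0.05 by edgeR and DESeq2, yellow points by DESeq2 alone and white points by neither. Per1, Per2, Per3 and Nr1d1 are yellow, and Dbp, Tef and Ciart are red.

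Of 12 genes listed as E-box outputs of liver, which include those 3 factors, 11 were tested. This list too was chosen with earlier results known. All 11 had positive log2 fold changes, with a median of 1.71, and Hlf was the lowest at 0.01 (SE 0.65). Over all 16860 genes tested, 9532 were positive. By edgeR 4 rose, Dbp, Tef, Ciart and Usp2, where 0.13% of all genes were called in either direction. DESeq2 called 6 higher, against 2.75% of genes. Usp2, a deubiquitinase with a strong daily rhythm in liver, was at 5.08, 12.9, 5.63, 2.62 and 7.55 CPM in Apoe-/- and at 86.0, 142, 137 and 45.5 CPM in Mif-2-/- Apoe-/- libraries (log2 fold change 3.91, SE 0.52, edgeR adjusted p = 0.00531). Wee1, a cell cycle kinase and clock target, was at 0 to 1.55 CPM in Apoe-/- and at 9.15, 2.27, 50.6 and 9.14 CPM in Mif-2-/- Apoe-/- libraries, groups that did not overlap. Its log2 fold change of 4.96 (SE 1.22) passed DESeq2 (adjusted p = 0.00121) but not edgeR (adjusted p = 0.132). With 1 library left out the edgeR adjusted p of Wee1 ran from 0.0443 to 0.351, and it passed only without Mif-2-/- Apoe-/- replicate 2.

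Genes that answer to signals which can also act on Per1 gave 0 calls by edgeR in each of 4 lists. As edgeR called 0.13% of all genes, lists of 9 or 10 genes would seldom hold a call, and the 10 members gave 0 too. At an unadjusted p of 0.05, 15.5% of all genes passed edgeR in either direction, and DESeq2 called 5.27%. Of 10 immediate early genes, 0 had an unadjusted p under 0.05 and 0 were called by DESeq2, with a median log2 fold change of -0.55. Its named genes were Ier3 at -1.31 (SE 0.78), Fos at 1.30 (SE 0.95) and Klf6 at -0.72 (SE 0.74). Of 9 glucocorticoid-responsive genes 2 were higher at an unadjusted p of 0.05, against 8.99% of all genes in that direction. DESeq2 called 0 of the 9, and their median was 0.62. The metallothionein Mt2 had a log2 fold change of 1.23 (SE 0.40), Tsc22d3 of 1.11 (SE 0.55) and Tat, an amino acid catabolic enzyme, of 1.05 (SE 0.39). The summed level of this list was 709 to 875 CPM before scaling in Apoe-/- and 825 to 2274 CPM in Mif-2-/- Apoe-/- libraries, lowest of the latter in replicate 3. The part of these signals in the members' values was not tested.

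Of 9 tested genes that answer to temperature, 1 was higher and 2 were lower at an unadjusted p of 0.05. Over all genes, 15.5% had such a p in either direction. In this list DESeq2 called 1 gene lower, where it called 5.27% of all genes in either direction. That gene was the small heat shock protein Hspb1, with a log2 fold change of -2.24 (SE 0.59, edgeR adjusted p = 0.141, DESeq2 adjusted p = 0.0150). Hspb1 passed edgeR only without Mif-2-/- Apoe-/- replicate 2 (adjusted p = 0.0413). Hsp90aa1 had -1.47 (SE 0.53), and Hsf1, the heat shock factor, 0.87 (SE 0.35). Of 10 genes of feeding and fasting, 1 was higher and 1 lower at an unadjusted p of 0.05, and DESeq2 called both. The same shares of all genes, 15.5% and 5.27%, stand beside these counts. The summed level of the feeding and fasting list was 2113 to 2464 CPM before scaling in Apoe-/- and 2732 to 5601 CPM in Mif-2-/- Apoe-/- libraries, without overlap. Its median log2 fold change was 0.08, with 6 genes positive and 4 negative. Summed levels of the immediate early, glucocorticoid and temperature lists overlapped between genotypes. The part of these signals in the members' values was not tested either. Pck1, a key enzyme of gluconeogenesis, was at 415 to 1058 CPM in Apoe-/- and 1309 to 3002 CPM in Mif-2-/- Apoe-/- livers (log2 fold change 1.18, SE 0.36, edgeR adjusted p = 0.171, DESeq2 adjusted p = 0.0211). Fgf21, a liver hormone of fasting, was at 24.0 to 96.7 and 7.77 to 20.7 CPM (log2 fold change -1.73, SE 0.52, edgeR adjusted p = 0.168, DESeq2 adjusted p = 0.0291). Irs2, an insulin receptor substrate, had 0.90 (SE 1.17).

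Ddt, the deleted gene, was at 233 to 972 CPM in Apoe-/- and 2.51 to 5.49 CPM in Mif-2-/- Apoe-/- libraries, which fits each label (log2 fold change -7.27, SE 0.54, edgeR adjusted p = 2.23e-05). Library totals ran from 2318148 to 10764182 counts, and 14220 to 18631 genes had a count. The 10 most abundant genes held 12.5% to 26.3% of a library's counts. Hepatocyte markers summed to 66907 to 134266 CPM before scaling in Apoe-/- and 68050 to 163360 CPM in Mif-2-/- Apoe-/- libraries. Summed levels of Kupffer cell, endothelial, stellate cell, cholangiocyte, T cell, B cell and neutrophil markers also overlapped between genotypes, and the neutrophil marker Ly6g was at 0 in every library. Of the 36 markers tested, edgeR called 0, 4 had an unadjusted p under 0.05, against 15.5% of all genes, and DESeq2 called 2, against 5.27% of genes. The 2 were lower in Mif-2-/- Apoe-/- livers. They were the Kupffer cell marker Cd5l (log2 fold change -1.20, SE 0.38, DESeq2 adjusted p = 0.0348, overlapping groups) and the T cell marker Cd3d, with 8 to 51 against 0 to 3 counts (log2 fold change -3.76, SE 1.25, DESeq2 adjusted p = 0.0193). The CPM of Cd3d did not overlap. The others at an unadjusted p under 0.05 were Tat, given above, and the T cell marker Cd3e, which was higher (4.81, SE 1.58) with 46 counts in Mif-2-/- Apoe-/- replicate 2 and 0 to 4 elsewhere. Their part in the members' values was not tested. In bulk liver, fewer cells of a type and less RNA per cell cannot be told apart. Since the labels do not say that libraries are separate animals, the p-values measure the spread between these samples.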

How the data were processed

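Liver RNA of 5 Apoe-/- and 4 Mif-2-/- Apoe-/- samples was analysed. Per the study's methods, lysates of several frozen sections were combined per sample, poly(A) RNA was bound to oligo-dT beads, and Smart-seq2 libraries were sequenced as paired reads. The deposited values are raw counts per gene, made by the authors from reads aligned with HISAT2 to mm10 after trimming with cutadapt. The counting tool, its strand setting, versions and any removal of duplicate reads are not given in the sources used here. Of 27179 identifiers, 25275 matched a symbol, and 1 line without an identifier was left out. The study's section comparison names fewer Apoe-/- mice than the 5 libraries in the table, and all 5 were used.

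A gene was tested if 3 or more libraries of 1 genotype held 1 or more counts of it, and the 10 most abundant genes by mean CPM were then dropped. The remaining counts were scaled by TMM and tested with edgeR 4.0.16 (quasi-likelihood, R 4.3.3) with Benjamini-Hochberg adjustment over all 16860 genes and genotype as the only term. The 95% intervals use the moderated degrees of freedom of that fit. The biological coefficient of variation was 0.909. Alternatives were DESeq2 1.42.0, the study's own tool, other scalings, filters and gene sets, a replicate block, leaving out each library, and 3 chosen after seeing the data: the share of the 10 most abundant genes as a covariate, DESeq2 on the filtered genes, and counts thinned to the smallest total. Single members were also compared by two-sided exact permutation tests of log2(CPM + 0.5). The fits were tested on simulated data. A count of 0 allows up to 3 counts, which is 0.279 to 1.29 CPM before scaling, depending on the library, and covers counting error only.

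All members are named. From other lists the genes called by edgeR were named, with the 3 of largest absolute log2 fold change among those averaging 5 CPM or more, and the overlapping partners of members. Nfil3 was added after its values were seen. Values of 1 listed clock gene are not reported here. Overlaps and exon lengths come from GENCODE M21 (GRCm38). The members and lists were chosen with earlier results of these data known. No sample-level column was left unused.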

Additional observations from a re-analysis of the deposited data

Results flagged for a closer look

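Among 22 groups of values tested for a library far from the others by Dixon's ratio, 3 stood out, and chance flags about 1 in 20 groups. In Mif-2-/- Apoe-/- livers, Per1 in replicate 4 was at 63.8 CPM, where the nearest other library was at 102 CPM (ratio 0.916). That value still lay above all 5 Apoe-/- libraries. In Apoe-/- livers, Cry2 in replicate 5 was at 17.0 CPM, where the nearest other library was at 61.5 CPM (ratio 0.918). The difference between the activator and repressor means in Apoe-/- replicate 4 was 0.48 on the log2 scale, where the nearest other Apoe-/- library was at -1.43 (ratio 0.732). The cause of these values was not tested.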

How the results depend on the processing

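Per1, Per2, Per3, Nr1d1 and Nr1d2 kept positive and Arntl and Cry1 negative log2 fold changes under every alternative in which they were tested, and other clock genes gave 2 or 3 calls throughout. The values of Arntl ran from -2.28 to -0.13 and those of Cry1 from -2.35 to -0.36, and neither gene was called in any. Which members were called depended on the setting. Against 0 members and 22 genes called in the main comparison, DESeq2 called 4 members and 739 genes, and DESeq2 on the filtered genes 4 and 690. An adjusted p of 0.1 gave 2 members and 43 genes, the covariate 1 and 35, and thinned counts 1 and 36. No filter on low counts gave 1 member and 29 genes (0.125% of those tested), and edgeR's own filter, which removes Clock and Nr1d2, gave 1 of 8 members and 33 genes (0.274%). Leaving out 1 library gave 0 to 2 members and 9 to 262 genes. The 2 members, Per1 and Per3, were called without Apoe-/- replicate 5, where 0.777% of genes were called, and without Mif-2-/- Apoe-/- replicate 2, where 1.6% were (262 genes). For replicate numbers 1 to 4, correlations of same-numbered deviations were 0.138, -0.0156, 0.0125 and -0.0262. Those of libraries with different numbers ran from -0.274 to 0.304. So few values cannot decide whether the numbers mark a pairing of samples. With a replicate block, which leaves out Apoe-/- replicate 5, 4 members and 505 genes were called. Directions turned for Clock (-0.23 with the block, -0.37 to 0.89 with 1 library left out), Npas2 (-0.19 and -0.74 to 1.32) and Cry2 (-0.15 with the block). Among the fits without 1 library, Clock and Npas2 turned only without Mif-2-/- Apoe-/- replicate 3. The cause of these differences was not tested. Activators minus repressors differed by -2.52 with Arntl as sole activator, -2.43 with medians, -2.09 without Cry1, -1.63 with RLE scaling, -1.49 with a pseudocount of 2, and -2.51 to -0.97 with 1 library left out. Over all genes the median log2 fold change was 0.17 and moved to -0.0015 with TMMwsp scaling and 0.305 with DESeq2. Clock, Cry1 and Nr1d2, at 33 counts or fewer per library, are limited by depth.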

Other observations

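Among 8147 tested genes outside the core loop with a mean of at least 10 CPM, the 10 whose levels lay closest to the difference between activator and repressor means were looked up, as a description over 9 libraries. Highest along with it were Copb2, a coatomer subunit (Pearson r = 0.953), Gpc1, a glypican (r = 0.938), App, the amyloid precursor gene (r = 0.930), Slc49a4 (r = 0.930) and Dnajc10, an endoplasmic reticulum disulfide reductase (r = 0.926). Running against it were Fbxo22, an F-box protein (r = -0.979), Mcm10, a DNA replication factor (r = -0.972), Dedd2 (r = -0.957), Dcps, the scavenger decapping enzyme (r = -0.939), and Ccdc191 (r = -0.936). All 10 overlapped between genotypes, and their edgeR adjusted p ran from 0.296 to 0.843. The points share their libraries, depth and composition, and these genes were picked from many for the size of r.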
